A study of Mus musculus with 16 samples.

Results

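The mammalian respiratory chain ends with complex III, which passes electrons from ubiquinol to cytochrome c, and complex IV, which passes them on to oxygen. The proton gradient that the chain builds drives ATP synthase, a rotary enzyme with a catalytic F1 head, a peripheral stalk and a membrane ring of c subunits. Most subunits are encoded in the nucleus, a few of complex IV come as tissue-specific paralogs, and oxidative muscle is rich in all of them. The genes described here were chosen by name: symbols that start with Uqcr, with Cox4, Cox5, Cox6, Cox7 or Cox8, or with Atp5, plus Cyc1 and Cycs. The rule found 45 of 24327 genes named in both expression tables, and no measured value entered it. Of the 45 genes, 42 had a test in each table and 3 were at or near 0 FPKM (fragments per kilobase of transcript, scaled to the mapped reads of a library). Mitochondrial DNA-encoded subunits were not analysed here.

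The libraries came from the quadriceps, a thigh muscle, of male C57BL/6 mice 4 months old, either wild type or labelled HDAC3-KO. HDAC3 is a histone deacetylase that works in corepressor complexes. The allele, the promoter of any Cre transgene and the cells deleted are not given in the sources used here. Wild-type and knockout muscle was taken at rest, and from mice that had run on a treadmill in 3 bouts of 1 h at 10 m/min with 1 h between bouts, 2 h after the last bout. Each of the 4 groups had 3 RNA-seq libraries, and the labels do not say that these came from separate animals, so the p-values below measure only the spread between libraries, which may be technical. The 2 resting groups stand in one table and the 2 exercised groups in another, normalised separately, so genotypes were compared within a table.

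Hdac3 fell from 29.3 ± 4.99 to 6.65 ± 1.36 FPKM at rest (SD, n = 3, limma adjusted p = 0.00487) and from 30.2 ± 2.30 to 5.27 ± 1.12 FPKM after exercise (limma adjusted p = 0.00111). The 5 muscle fibre markers (Acta1, Ckm, Myh4, Tnnt3 and Mb) summed to between 41573 and 60095 FPKM in every library, and the brown fat marker Ucp1 was listed at 0 throughout. Total FPKM per library ran from 454359 to 522584, and read depth is unknown. In 2 libraries the sum of the 5 immune markers stood apart. It was 468 FPKM in resting wild-type library 2 and 312 FPKM in exercised knockout library 3, against 3.39 to 16.3 FPKM in the others. The markers S100a8 and S100a9 alone made up 461 and 304 FPKM of these 2 sums. Some of the results below are also given without 1 of these libraries.

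For 5 genes the results turn on, the 250 bases before the gene's start are shown 5′ to 3′ in gene orientation, from RefSeq (mouse build GRCm38.p6). The submitters' processing notes name build mm9 for the expression data, so these coordinates belong to the RefSeq build alone. The first 3 are the c-ring paralogs, which encode the same mature c subunit behind different import sequences and of which Atp5g1 had the largest difference between the genotypes. Capitals mark matches on either strand to 7 motifs: NRF1 (GCGCA, any 1 base, GCGC), ETS (CCGGAAGT), ERR (TCAAGGTCA), MEF2 (CTA, any 4 bases, TAG), an E-box (CAGCTG), YY1 (AANATGGC) and CCAAT. All 5 promoters lie on the minus strand.
Atp5g1, chr11:96075632-96075881: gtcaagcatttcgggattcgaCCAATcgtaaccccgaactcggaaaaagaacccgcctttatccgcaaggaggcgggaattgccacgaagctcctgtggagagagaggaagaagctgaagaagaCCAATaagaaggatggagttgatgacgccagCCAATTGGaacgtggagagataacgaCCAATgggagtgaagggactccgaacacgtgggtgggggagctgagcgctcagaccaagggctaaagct
Atp5g2, chr15:102671048-102671297: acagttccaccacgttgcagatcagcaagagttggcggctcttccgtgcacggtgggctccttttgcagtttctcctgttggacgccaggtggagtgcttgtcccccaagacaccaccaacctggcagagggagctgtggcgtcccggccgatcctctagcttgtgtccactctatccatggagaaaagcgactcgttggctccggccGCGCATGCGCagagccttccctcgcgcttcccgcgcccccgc
Atp5g3, chr2:73911327-73911576: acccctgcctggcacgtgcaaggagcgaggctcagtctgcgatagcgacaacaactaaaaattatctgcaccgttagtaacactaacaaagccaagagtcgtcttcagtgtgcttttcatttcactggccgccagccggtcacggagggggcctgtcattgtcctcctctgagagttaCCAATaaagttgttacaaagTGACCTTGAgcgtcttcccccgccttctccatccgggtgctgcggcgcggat
Cox8b, chr7:140900447-140900696: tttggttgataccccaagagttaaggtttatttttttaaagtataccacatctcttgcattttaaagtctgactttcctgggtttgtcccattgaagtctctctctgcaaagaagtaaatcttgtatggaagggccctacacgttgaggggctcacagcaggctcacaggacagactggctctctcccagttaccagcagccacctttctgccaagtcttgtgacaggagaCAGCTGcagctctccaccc
Cox8a, chr19:7217617-7217866: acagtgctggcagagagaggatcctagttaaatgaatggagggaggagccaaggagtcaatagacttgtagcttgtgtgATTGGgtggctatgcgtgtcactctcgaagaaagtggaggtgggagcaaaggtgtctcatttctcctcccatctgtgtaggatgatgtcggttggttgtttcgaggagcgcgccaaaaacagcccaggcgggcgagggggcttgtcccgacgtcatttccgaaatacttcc

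The c-ring promoters shared few of these letters. Atp5g1 held 5 CCAAT matches, a pair of them overlapping as CCAATTGG, and none of the other motifs. Atp5g2 held one NRF1 match, and Atp5g3 one CCAAT and one ERR match, on the reverse strand. The muscle form Cox8b held an E-box match 19 to 14 bases before its start, whereas its broadly expressed paralog Cox8a held a CCAAT match on the reverse strand. Of the 45 genes, 35 had a promoter entry. CCAAT was in 57.1% of these 35 (20 promoters) and in 37.5% of 27025 genes, and NRF1 in 14.3% (5) against 4.23%. ETS was in 8.57% (3) against 3.23%, and ERR in 2.86% (1, that of Atp5g3) against 0.422%. E-box matches were in 5.71% of the 35 promoters (2) and in 14.7% of all, MEF2 in 2.86% (1) against 3.7%, and YY1 in 5.71% (2) against 4.49%. A match describes letters in this window and is not a measured site.

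The 42 tested genes were among the most abundant in the muscle. Together they made up 6.14% to 6.70% of all FPKM in each library, and 37 of 42 averaged 100 FPKM or more in every group. Atp5k, the e subunit in the membrane part of ATP synthase, had the highest mean level in resting wild type at 2401 ± 170 FPKM (SD, n = 3) and ranked 21 of 9204 fitted genes over the resting libraries. Cox4i2, the alternative form of subunit 4, had the lowest at 1.90 ± 0.807 FPKM. Within complex III, levels in resting wild type ran from 175 FPKM for Uqcrq to 1085 FPKM for Uqcrb. Within ATP synthase they ran from 156 FPKM for Atp5d, the delta subunit of the head, to Atp5k.

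**Figure D1:**
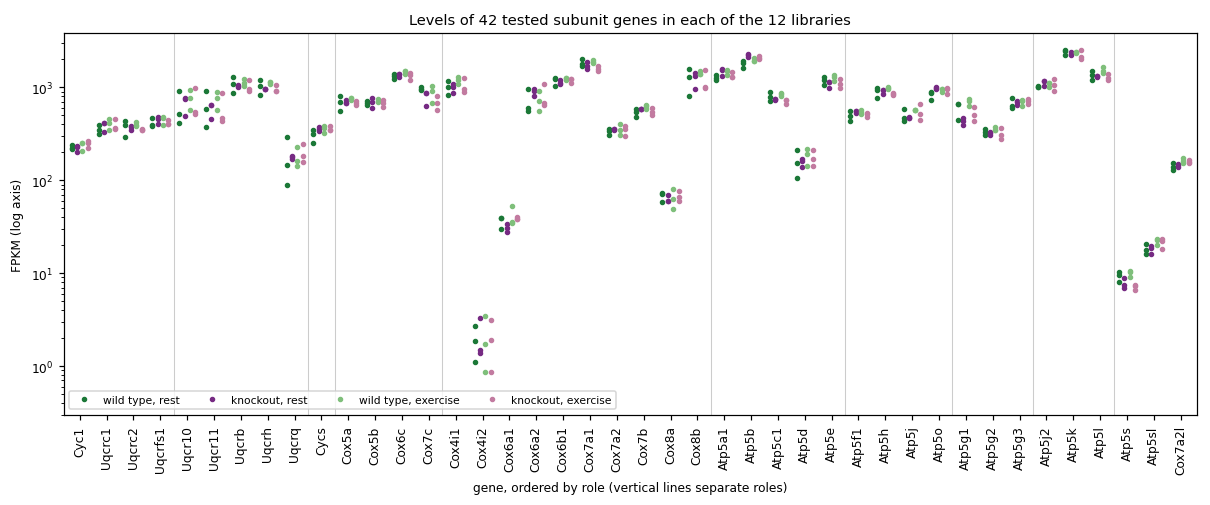
FPKM (log axis) of the 42 tested genes in each of the 12 libraries, ordered by role; each point is a library and colours mark the 4 groups. Most genes sit above 100 FPKM, with Cox4i2 averaging 1.90 FPKM in resting wild type, and the groups overlap for most genes.

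Summed over the 9 complex III genes, resting wild type had 4886 ± 177 FPKM and resting knockout 4852 ± 407 FPKM (SD, n = 3). The complex IV genes summed to 10571 ± 516 and 10546 ± 783 FPKM, and the 15 ATP synthase genes to 14262 ± 803 and 14781 ± 699 FPKM. After exercise the sums were 5417 ± 381 and 4866 ± 513 FPKM for complex III, 11390 ± 358 and 10157 ± 997 FPKM for complex IV, and 15514 ± 618 and 14354 ± 926 FPKM for ATP synthase, wild type first. The genotypes' libraries overlapped for all 3 sums in both conditions. In bulk muscle, fewer fibres of a type and less RNA per fibre cannot be told apart.

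The first comparison asked how loss of HDAC3 changed these genes in resting muscle. None of the 42 tested genes was called by limma at an adjusted p of 0.05, where 4.72% of the 9204 fitted genes were called (3.04% higher and 1.67% lower in the knockout). At an unadjusted p under 0.05 there were 2, Atp5b and Atp5g1, against 21.5% of fitted genes. The authors' deposited table called 1, Atp5g1, lower in the knockout, where its q-values called 10.8% of genes in either direction and 4.94% lower. The log2 difference, knockout minus wild type on the log2(FPKM + 1) scale, was above 0 for 23 genes and below 0 for 19, with a median of 0.017 beside 0.011 over all fitted genes, of which 51.7% were above 0. That median lay between -0.0093 and 0.066 when any 1 library was left out, and was 0.020 without wild-type library 2. The 95% interval of the difference stayed within 1.5-fold either way for 33 of 42 genes and within 1.25-fold for 11. The 6 slow fibre markers summed to 70.3 to 135 FPKM in wild type and 96.7 to 190 FPKM in the knockout. Of the 5 tested, 4 had log2 differences above 0 and 1 below, with a median of 0.55. Limma called none of the 5, and the authors' q-values called 1 higher. The part of the slow fibre markers in the values of the 42 genes was not tested.

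The same comparison was made after treadmill running. Again limma called none of the 42 genes, against 3.73% of 9037 fitted genes (1.58% higher and 2.15% lower). The authors' deposited q-values called none of them, against 9.57% in either direction and 4.91% lower. At an unadjusted p under 0.05 there were 4 (Atp5s, Atp5g1, Cox7a1 and Atp5c1), against 19.9%. The log2 differences leaned one way: 36 of 42 were below 0 and 6 above, with a median of -0.11 beside -0.00074 over all fitted genes, of which 49.9% were above 0. The lean was not equal among the knockout libraries, whose median gene stood at -0.18, -0.15 and -0.017 relative to the wild-type mean. Without library 3 of the knockout, the one with high S100a8 and S100a9, the median was -0.15, and over all libraries left out it ranged from -0.15 to -0.087. The summed muscle fibre markers were 47116 to 60095 FPKM in wild type and 41573 to 52355 FPKM in the knockout, and total FPKM was 484436 to 522584 against 456097 to 501382. All 3 tested immune markers had log2 differences above 0, at 1.48 to 1.92, and the authors' deposited q-values called all 3 higher. Limma called 1 of them, the macrophage gene Cd68 (adjusted p = 0.0372). Cd68 averaged 0.888 ± 0.545 FPKM in wild type and 4.26 ± 1.45 FPKM in the knockout. S100a8 and S100a9, which limma did not call, stood high in knockout library 3 only. The 6 slow fibre markers summed to 42.3 to 121 FPKM in wild type and 43.4 to 138 FPKM in the knockout. Of the 5 tested, 4 had log2 differences below 0 and 1 above, with a median of -0.37. Limma called none of the 5, and the authors' q-values called 1 lower, where they called 4.91% of genes lower. Of the 5 muscle fibre markers, 4 were below 0 and 1 above, with a median of -0.25, and neither test called any. The part of any of these in the lean was not tested.

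**Figure D2:**
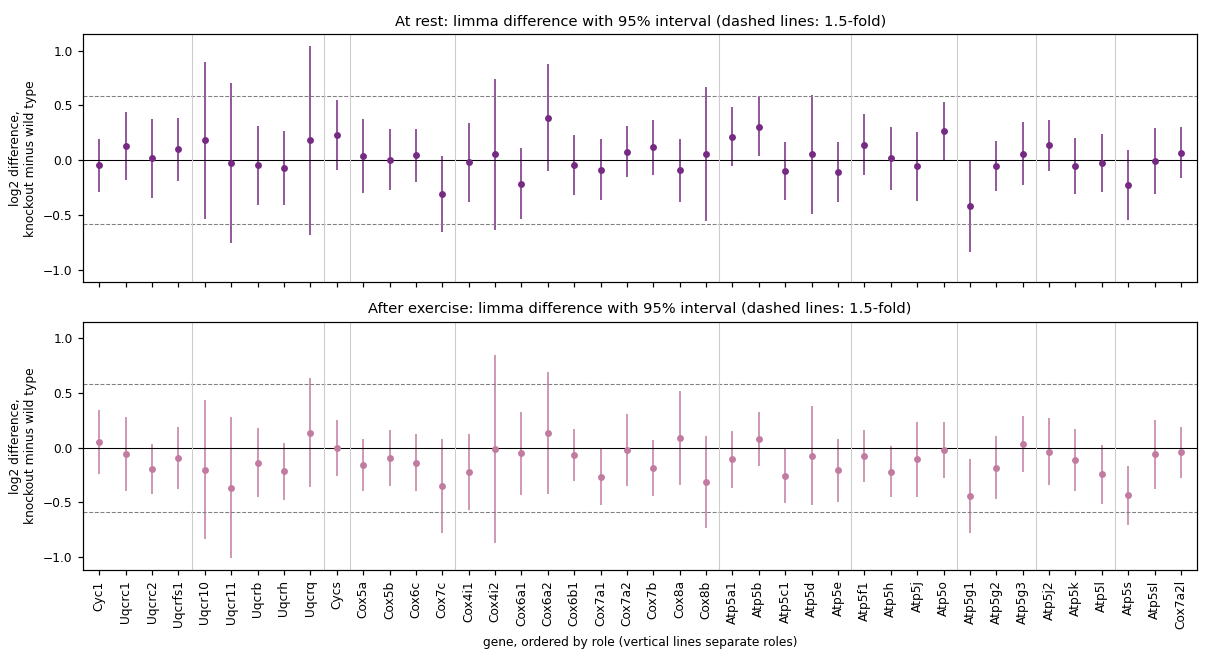
Log2 difference (knockout minus wild type, log2(FPKM + 1) scale) of each tested gene at rest and after exercise; points are limma estimates, bars 95% intervals, dashed lines 1.5-fold. At rest 23 of 42 estimates lie above 0, after exercise 6 of 42.

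The genotype difference after exercise was set against that at rest in one model over all 12 libraries. No gene of the 42 was called, and limma called 0.0% of the 8854 genes fitted. None of the 42 reached an unadjusted p under 0.05, while 4.89% of all genes did. The interaction (difference after exercise minus difference at rest) was below 0 for 39 of 42 genes, with a median of -0.16 beside -0.036 over all fitted genes, of which 44.3% were above 0. Of the 42, Atp5a1, the alpha subunit of the F1 head, had the lowest p, with an interaction of -0.32 ± 0.15 (SE, limma adjusted p = 0.923). The interaction was also below 0 for 4 of 4 complex II genes (median -0.17) and 7 of 7 genes listed with the nucleotide carriers (-0.19). For genes listed with ATP synthase assembly it was below 0 in 5 of 6 (-0.20). Of the muscle fibre markers 5 of 5 were below 0 (-0.30), and of the slow fibre markers 4 of 5 (-1.05). Above 0 were 12 of 21 complex IV assembly genes (0.042) and 10 of 13 biogenesis factors (0.056). Between the tables, with no test because they were normalised separately, 39 of 42 genes read higher in exercised than resting wild type, against 50.2% of 8854 genes. In the knockout 16 of 42 did, a share near the 44.5% of all genes.

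The 4 core genes of complex III had similar levels and none passed the test in either condition. Uqcrc2, core protein 2 on the matrix side, read 434, 390 and 290 FPKM in resting wild type and 351, 376 and 385 FPKM in resting knockout, so the groups overlapped. After exercise it read 422, 381 and 397 FPKM against 346, 356 and 344 FPKM, with every knockout library below every wild-type library (log2 difference -0.20 ± 0.10 SE, limma adjusted p = 0.324). Its partner Uqcrc1, core protein 1, overlapped in both conditions, with means of 353 ± 35.6 and 386 ± 50.5 FPKM at rest (log2 difference 0.13, limma adjusted p = 0.634) and 404 ± 51.6 and 390 ± 56.1 FPKM after exercise. The Rieske iron-sulfur protein gene Uqcrfs1 was the highest of the core at 416 ± 49.4 and 445 ± 39.4 FPKM at rest. Cyc1, which encodes the haem subunit that reduces cytochrome c, was the lowest at 227 ± 10.7 and 220 ± 18.2 FPKM.

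The 5 small accessory subunits split by how steady they were. Uqcrb and the hinge protein gene Uqcrh varied less than the others: Uqcrh read 1197, 1030 and 830 FPKM in resting wild type and 958, 955 and 970 FPKM in resting knockout. After exercise Uqcrh read 1144, 1075 and 1142 FPKM against 923, 1071 and 910 FPKM, and the groups did not overlap (log2 difference -0.21 ± 0.11 SE, limma adjusted p = 0.339). Uqcr10, Uqcr11 and Uqcrq varied widely among libraries of 1 group. Uqcr10 read 410, 522 and 907 FPKM in resting wild type, Uqcr11 374, 592 and 917 FPKM, and Uqcrq 88.7, 146 and 290 FPKM, each highest in library 3. For Uqcr11 the 95% interval of the log2 difference at rest ran from -0.76 to 0.70, so a change under 1.5-fold was not detectable. Cycs, the gene of the electron carrier cytochrome c, read 350, 314 and 252 FPKM in resting wild type and 337, 358 and 370 FPKM in resting knockout (log2 difference 0.23 ± 0.14 SE, limma adjusted p = 0.381). Without wild-type library 3 the difference was 0.098. After exercise Cycs averaged 360 and 359 FPKM.

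That wide spread was shared by 6 genes of the 3 complexes: Uqcr10, Uqcr11, Uqcrq, Atp5d, Cox6a2 and Cox8b, grouped after their values were seen and so not tested. Their SD between libraries of a group was 0.33 to 0.49 on the log2 scale, with a median of 0.41, against a median of 0.12 for the 31 other tested genes at 100 FPKM or more and 0.16 for all 585 genes at that level. The share of these 585 genes with a smaller SD ran from 84.8% for Atp5d to 92.0% for Uqcrq, so other abundant genes varied as much. All 6 stood above their group mean in resting wild-type library 3, resting knockout library 2, exercised wild-type library 2 and exercised knockout library 3. All 6 stood below it in resting wild-type library 1, resting knockout library 1, exercised wild-type library 3 and exercised knockout libraries 1 and 2. In resting wild-type library 3 their median was 0.57 above the group mean while that of the other 36 genes was 0.12 below it. Some of the other genes moved with the 6. Atp5g1, Cox4i1, Uqcrc1 and Atp5j2 lay on the same side of their group means in every library listed for the 6. Their SDs were smaller, at 0.23, 0.20, 0.18 and 0.12. Atp5g1 stood at -0.39 in resting wild-type library 1 and at 0.21 in library 3. The summed muscle fibre markers were highest of their group in resting wild-type library 3 (53208 FPKM), resting knockout library 2 (51877 FPKM), exercised wild-type library 2 (60095 FPKM) and exercised knockout library 3 (52355 FPKM), and their part in the spread was not tested.

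**Figure D3:**
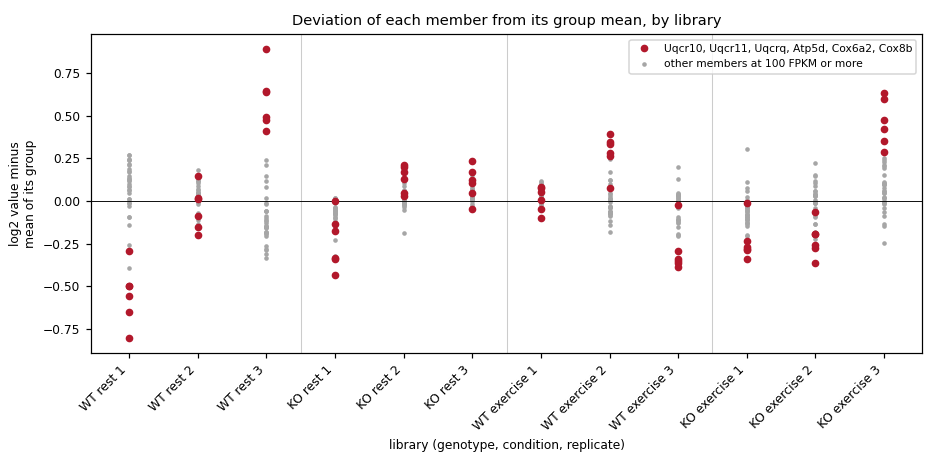
Log2 value of each gene minus its group mean in each of the 12 libraries; red points are the 6 genes named in the key, grey points the other tested genes at 100 FPKM or more. The red points move together, from a median of -0.53 in resting wild-type library 1 to 0.57 in library 3.

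Among the nuclear subunits of complex IV without a paralog, Cox7c had the largest differences in both conditions. It read 999, 972 and 928 FPKM in resting wild type and 624, 876 and 866 FPKM in resting knockout, with no overlap (log2 difference -0.31 ± 0.15 SE, limma adjusted p = 0.287), and the difference was -0.15 without knockout library 1. After exercise it read 916, 1023 and 682 FPKM against 680, 568 and 801 FPKM, and the groups overlapped (-0.35 ± 0.19 SE, limma adjusted p = 0.343), with -0.22 without wild-type library 2 or knockout library 2. Cox5a, a matrix-side subunit, read 801, 701 and 555 FPKM at rest in wild type and 677, 724 and 687 FPKM in the knockout. After exercise Cox5a read 776, 723 and 778 FPKM against 708, 684 and 651 FPKM, without overlap (limma adjusted p = 0.441). Cox6c was the most abundant of the 4 at 1318 ± 80.1 and 1358 ± 57.5 FPKM at rest, and Cox5b averaged 682 ± 26.4 and 688 ± 83.7 FPKM.

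The paralogs of complex IV showed the muscle makeup in all 4 groups. Cox6a2, the heart and muscle form of subunit 6a, made up 94.9% ± 1.11 of Cox6a2 plus Cox6a1 in resting wild type (SD, n = 3) and 96.7% ± 0.0918 in resting knockout. The muscle form Cox7a1 made up 84.6% ± 1.09 and 83.04% ± 1.246 of Cox7a1 plus Cox7a2, and Cox8b 94.3% ± 2.46 and 94.98% ± 1.47 of Cox8b plus Cox8a. After exercise the shares were 94.5% and 95.2% for Cox6a2, 84.4% and 82.0% for Cox7a1, and 95.7% and 94.4% for Cox8b, wild type first. Cox4i2 made up only 0.188% and 0.217% of subunit 4 at rest. An exact two-sided permutation test of 3 against 3 libraries cannot go below 0.1, so no pair could pass 0.05. The Cox6a2 share at rest reached that 0.1 (0.6 after Benjamini-Hochberg adjustment over 6 pairs), its libraries not overlapping at 93.8% to 96.1% in wild type and 96.6% to 96.8% in the knockout. Shares compare levels per length.

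Behind these shares, Cox6a2 read 556, 594 and 962 FPKM in resting wild type and 814, 912 and 960 FPKM in resting knockout, and the groups overlapped through wild-type library 3. Its log2 difference was 0.39 ± 0.21 (SE, limma adjusted p = 0.335), and without that library 0.64 (limma adjusted p = 0.0415), the only member call in any fit that left a library out; over its alternatives the adjusted p ran from 0.0415 to 0.631. Cox7a1, the most abundant complex IV gene, read 1994, 1814 and 1897 FPKM in exercised wild type and 1559, 1488 and 1696 FPKM in exercised knockout, with no overlap (-0.27 ± 0.11 SE, limma adjusted p = 0.234). Cox8b read 1376, 1500 and 1399 FPKM against 976, 1005 and 1539 FPKM after exercise (-0.31 ± 0.18 SE, limma adjusted p = 0.381), the highest value being a knockout library, and the difference ran from -0.52 to -0.20 with 1 library left out. The non-muscle form Cox6a1 averaged 36.1 ± 5.41 and 30.8 ± 3.06 FPKM at rest, and Cox8a 67.6 ± 8.14 and 63.2 ± 5.70 FPKM. Cox4i1, the common form of subunit 4, averaged 1006 ± 170 and 986 ± 107 FPKM at rest and 1195 ± 106 and 1034 ± 188 FPKM after exercise. Cox6b1, Cox7b and Cox7a2 differed by -0.043, 0.12 and 0.079 on the log2 scale at rest. The isoform genes Cox6b2, Cox7b2 and Cox8c were not tested: Cox6b2 read 0.884 FPKM in exercised wild-type library 3, Cox7b2 0.946 in resting wild-type library 3 and 0.455 in exercised wild-type library 2, and every other value of the 3 genes was listed at 0.

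**Figure D4:**
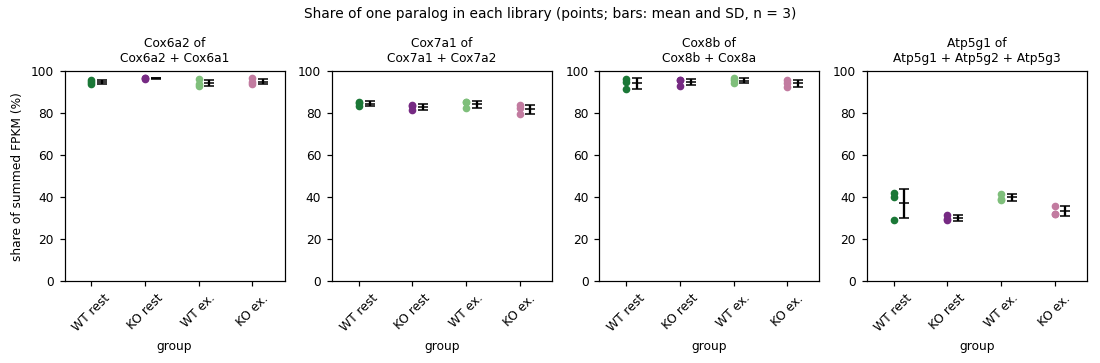
Share (percent of summed FPKM) of one paralog in each library; points are libraries and bars the mean and SD of 3. The muscle forms Cox6a2, Cox7a1 and Cox8b hold 79.6% or more in every library, and the Atp5g1 share is lower in knockout than wild type after exercise.

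In the F1 head of ATP synthase, the catalytic beta subunit Atp5b was the most abundant. It read 1933, 1825 and 1610 FPKM in resting wild type and 2108, 2218 and 2294 FPKM in resting knockout, with every knockout library above every wild-type library. The log2 difference was 0.31 ± 0.11 (SE, limma adjusted p = 0.179), and after exercise it was 0.076 ± 0.11 with overlapping libraries. Atp5a1, the alpha subunit, averaged 1271 ± 75.7 and 1478 ± 141 FPKM at rest and 1461 ± 93.8 and 1358 ± 91.5 FPKM after exercise, overlapping in both. The gamma subunit Atp5c1, the rotor shaft, read 874, 804 and 851 FPKM in exercised wild type and 656, 735 and 728 FPKM in exercised knockout, without overlap (-0.26 ± 0.11 SE, limma adjusted p = 0.237). Atp5e, the epsilon subunit, overlapped in both conditions, at 1274 ± 91.1 and 1105 ± 115 FPKM after exercise (limma adjusted p = 0.390).

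The 4 peripheral stalk genes hold the head against rotation, and none passed the test. Atp5o, the OSCP subunit at the top of the stalk, read 861, 893 and 724 FPKM in resting wild type and 964, 994 and 1005 FPKM in resting knockout, without overlap (0.26 ± 0.11 SE, limma adjusted p = 0.240, and 0.17 without wild-type library 3). After exercise Atp5o overlapped at 938 ± 34.8 and 925 ± 75.9 FPKM. Atp5h, subunit d, overlapped at rest and read 1020, 959 and 987 FPKM against 829, 873 and 843 FPKM after exercise, without overlap (-0.22 ± 0.10 SE, limma adjusted p = 0.274). Atp5f1, subunit b, averaged 497 ± 61.7 and 547 ± 17.7 FPKM at rest, and Atp5j, coupling factor 6, 495 ± 85.4 and 472 ± 8.19 FPKM.

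The c ring held the member with the largest differences in ATP synthase. Atp5g1 read 440, 657 and 670 FPKM in resting wild type and 389, 438 and 472 FPKM in resting knockout, overlapping only through the lowest wild-type library. Means were 589 ± 129 and 433 ± 41.6 FPKM (log2 difference -0.42 ± 0.18 SE, limma adjusted p = 0.228), and the authors' deposited table gave a q-value of 0.0256, so the call differed between the tests. Over its alternatives, that q included, the adjusted p at rest ran from 0.0256 to 0.503. After exercise Atp5g1 read 709, 756 and 623 FPKM against 500, 438 and 608 FPKM, with every knockout library below every wild-type library. Means were 696 ± 67.3 and 515 ± 86.0 FPKM (-0.44 ± 0.15 SE, limma adjusted p = 0.156), with a q-value of 0.0945 in the authors' deposited table. The estimates in both conditions lay close to each other, with an interaction of -0.021 ± 0.24 (SE, limma adjusted p = 0.988).

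The differences of the other c-ring genes were smaller. Atp5g3, the most abundant at rest, averaged 661 ± 89.5 and 685 ± 35.8 FPKM, and after exercise 690 ± 50.9 and 707 ± 41.4 FPKM, overlapping in both. Atp5g2 averaged 331 ± 22.8 and 319 ± 13.6 FPKM at rest (log2 difference -0.052) and 358 ± 17.2 and 318 ± 43.0 FPKM after exercise (-0.18, limma adjusted p = 0.463). As a share of the summed c-ring FPKM, a comparison added after the data were seen, Atp5g1 held 29.1%, 40.1% and 42.1% in resting wild type and 29.1%, 29.7% and 31.5% in resting knockout (exact permutation p = 0.4). After exercise it held 39.0%, 41.7% and 38.9% against 32.2%, 31.8% and 36.0%, without overlap, at the smallest exact permutation p of 0.1.

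Of the small membrane subunits, the libraries of Atp5k and Atp5l overlapped at rest. Atp5j2, subunit f, read 1011, 1014 and 1034 FPKM in resting wild type and 1043, 1157 and 1161 FPKM in resting knockout, without overlap (0.13 ± 0.10 SE, limma adjusted p = 0.482). After exercise Atp5l, subunit g, read 1646, 1516 and 1410 FPKM against 1205, 1276 and 1378 FPKM, without overlap (-0.24 ± 0.12 SE, limma adjusted p = 0.293). The name rule also took 3 genes that are not subunits of these complexes in the narrow sense. Atp5s, a coupling factor gene, read 9.17, 10.4 and 10.4 FPKM in exercised wild type and 7.35, 7.40 and 6.58 FPKM in exercised knockout, without overlap. Its log2 difference of -0.44 ± 0.12 (SE, limma adjusted p = 0.0919) had the lowest adjusted p of the 42 genes. Atp5sl averaged 22.0 ± 1.88 and 21.2 ± 2.83 FPKM after exercise, and Cox7a2l, a supercomplex assembly factor, 164 ± 10.8 and 159 ± 4.11 FPKM.

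Counted over all roles, 3 of 42 genes at rest had every knockout library above every wild-type library (Atp5b, Atp5j2 and Atp5o) and 1 had them all below (Cox7c), where 15.6% of fitted genes lay wholly above, 12.4% wholly below and 28.0% did not overlap in either direction. After exercise 9 genes had every knockout library below (Atp5c1, Atp5g1, Atp5h, Atp5l, Atp5s, Cox5a, Cox7a1, Uqcrc2 and Uqcrh) and none above, where 13.7% of fitted genes lay wholly below, 12.4% wholly above and 26.1% did not overlap in either direction. These counts were the same without the 6 genes of wide spread.

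Genes that build, regulate or feed these complexes were read from lists of the pathway. Of 13 tested mitochondrial biogenesis factors at rest and 14 after exercise, limma called 2 higher in each, Tfam and Esrrg, and none lower, where 3.04% of all fitted genes were called higher at rest and 1.58% after exercise. The authors' deposited q-values called 3 of the 13 higher at rest, Tfb2m (a mitochondrial transcription factor, q = 0.0408) being the third, and 2 after exercise. Tfam, which packages and transcribes mitochondrial DNA, read 15.3, 15.8 and 14.8 FPKM in resting wild type and 26.2, 30.0 and 25.9 FPKM in resting knockout (log2 difference 0.79, limma adjusted p = 0.0141). After exercise it read 16.1, 15.0 and 14.4 FPKM against 22.2, 26.0 and 23.7 FPKM (0.63, limma adjusted p = 0.0313). Esrrg, a nuclear receptor that drives oxidative genes, read 6.70, 6.85 and 5.87 FPKM at rest against 13.9, 11.96 and 16.7 FPKM (1.01, limma adjusted p = 0.0154), and after exercise 7.05, 5.07 and 6.23 FPKM against 17.6, 15.8 and 12.3 FPKM (1.19, limma adjusted p = 0.0152). No library of either genotype overlapped for Tfam and Esrrg. The related receptor gene Esrra lay the other way and was not called. It averaged 22.4 ± 14.4 and 12.6 ± 3.92 FPKM at rest (-0.66, limma adjusted p = 0.405). After exercise it averaged 26.0 ± 5.79 and 17.6 ± 5.89 FPKM (-0.56, limma adjusted p = 0.245), wild type first, and the libraries overlapped in both conditions. Of the tested factors, 9 of 13 had log2 differences above 0 at rest and 10 of 14 after exercise.

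Another list held assembly and regulatory genes of ATP synthase together with its small proteins Usmg5 and 2010107E04Rik. Of its 6 tested genes, limma called 1 higher in each condition, against the same 3.04% and 1.58% of all fitted genes. That gene, Tmem70, encodes an assembly factor and read 48.1, 41.6 and 35.7 FPKM in resting wild type and 78.9, 80.0 and 79.0 FPKM in resting knockout (0.92, limma adjusted p = 0.0148). After exercise it read 47.9, 43.3 and 48.7 FPKM against 64.8, 78.3 and 66.6 FPKM (0.57, limma adjusted p = 0.0418). Of the 6 genes, 3 had log2 differences above 0 after exercise and 3 below. The lowest was that of Usmg5, at 1320 ± 125 FPKM in wild type and 1048 ± 111 FPKM in the knockout (-0.33, limma adjusted p = 0.208). Of 7 tested genes of nucleotide and phosphate carriers, channels and the mitochondrial creatine kinase Ckmt2, limma called 2 higher at rest against 3.04% of all genes. These were the outer membrane channel Vdac3, from 491 ± 38.2 to 757 ± 22.3 FPKM (0.63, limma adjusted p = 0.0204), and the ADP/ATP carrier Slc25a5, from 32.7 ± 0.482 to 45.3 ± 2.96 FPKM (0.46, limma adjusted p = 0.0377). The far more abundant ADP/ATP carrier Slc25a4 was not called at rest. It averaged 3849 ± 41.8 FPKM in wild type and 5101 ± 207 FPKM in the knockout (0.41, limma adjusted p = 0.0798, authors' q = 0.148). After exercise none of the 7 was called, with Vdac3 at an adjusted p of 0.230 and Slc25a5 at 0.297 (limma), and neither interaction was called (limma adjusted p = 0.923 and 0.962).

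With fewer libraries these calls were less firm. At rest, of 6 fits that each left out 1 library, Tfam passed in 4, Esrrg in 3, Tmem70 in 3, Vdac3 in 2 and Slc25a5 in 0, and after exercise Esrrg passed in 2 and Tfam and Tmem70 in 0. The highest adjusted p over these fits was 0.0695 for Tfam, 0.0754 for Esrrg and Tmem70 and 0.103 for Vdac3, all without wild-type library 2, and 0.150 for Slc25a5 without knockout library 3. Without wild-type library 2, the one with high S100a8 and S100a9, the log2 differences were 0.82 for Tfam, 1.05 for Esrrg and 0.92 for Tmem70. They were 0.62 for Vdac3 and 0.46 for Slc25a5, all close to those with that library. After exercise the highest limma adjusted p was 0.108 for Tfam and 0.143 for Tmem70 without wild-type library 2, and 0.0612 for Esrrg without knockout library 2. None of the 4 complex II subunit genes, 6 complex III assembly genes or 21 complex IV assembly genes was called in either condition by limma. The authors' deposited q-values called 1 of them at rest, where they called 10.8% of genes, and none after exercise. That gene, the complex III assembly gene Uqcc1, rose from 60.4 ± 7.22 to 81.3 ± 1.24 FPKM (q = 0.0395, limma adjusted p = 0.0735). At an unadjusted p under 0.05 these lists held 0, 2 and 2 genes at rest, where 21.5% of all fitted genes did so, and 0, 2 and 4 after exercise, against 19.9%. Their most abundant genes at rest were Sdhb, a complex II subunit, at 435 ± 6.88 and 487 ± 53.7 FPKM, Uqcc2, a complex III assembly factor, at 252 ± 60.3 and 264 ± 24.3 FPKM, and Cox17, a copper chaperone, at 90.9 ± 29.1 and 95.9 ± 11.4 FPKM.

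**Figure D5:**
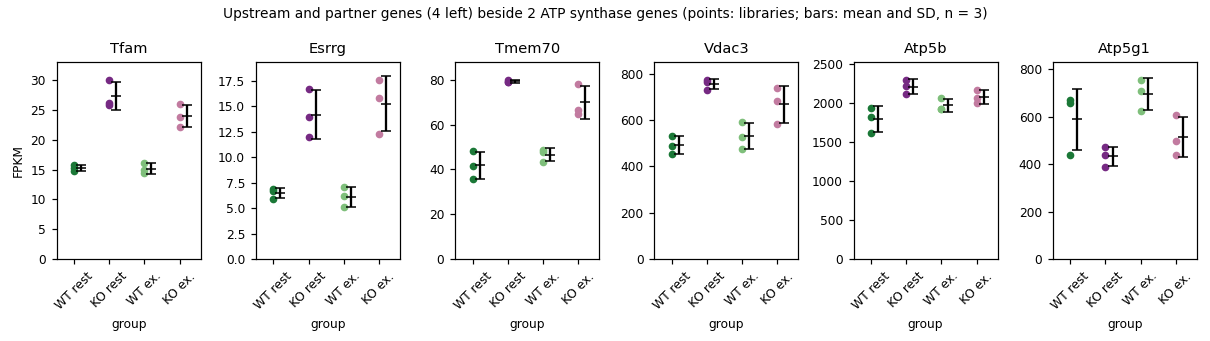
FPKM of Tfam, Esrrg, Tmem70 and Vdac3 beside the ATP synthase genes Atp5b and Atp5g1 in each library (each panel with its own linear axis from 0); points are libraries and bars the mean and SD of 3. Tfam, Esrrg and Tmem70 are higher in every knockout library in both conditions, and Vdac3 and Atp5b at rest only. Of all fitted genes, 15.6% lay wholly above at rest and 12.4% after exercise. Atp5g1 is lower on average in both conditions.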

How the data were processed

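Per the submitters' processing notes, TopHat2, Bowtie, Cuffdiff, HOMER and genome build mm9 were used; what each did, its version and settings are not given in the sources used here. The deposited tables hold FPKM per library, which the authors computed per gene, with the authors' group means, p-values and q-values. The authors' deposited fold changes were not used. Each table had 24354 rows, and 27 gene names turned into dates in the exercise table were left out. FPKM are not counts, so no count model was used and depth is unknown, which leaves the spread between 3 libraries as the measure of error.

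Values were taken to log2(FPKM + 1) and fitted with limma 3.58.1 (R 4.3.3, moderated by a mean trend) over all genes the authors tested, in which their p-value was under 1. Benjamini-Hochberg adjusted p at or under 0.05 was the call. Fold changes on this scale understate the change of low genes. Shares of paralogs were tested with an exact two-sided permutation test (Python 3.11.15, scipy 1.17.1). The script was tested on simulated data. Alternatives were a pseudocount of 0.1, a mean of at least 1 FPKM, no filter, centred libraries, a replicate block, each library left out, and the authors' q-values.

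The genes, lists and tests were chosen with earlier results of these data known. Genes were named by role: in each role group the 2 with the largest difference in each table, the most abundant, all isoform pairs and the non-subunits, and from the pathway lists up to 2 called genes or the most abundant; genes given beyond this were chosen after their values were seen. Conditions were read from the tables' names and column headings. The 4 GRO-seq libraries were not analysed here.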

Additional observations from a re-analysis of the deposited data

How the results depend on the processing

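The count of members called after exercise and in the interaction was 0 under every alternative run. At rest it was 0 in all but the authors' q-values (1, Atp5g1) and the fit without wild-type library 3 (1, Cox6a2), so it ranged from 0 to 1 with a library left out. With the replicate number as a block (replicate block), no member was called and the median log2 difference was 0.0175 at rest and -0.1055 after exercise. Libraries of the same number did not vary together (correlation of deviations -0.003, 0.047 and 0.049 at rest, and 0.026, -0.329 and -0.176 after exercise). Under the block Tfam, Tmem70, Vdac3 and Slc25a5 were not called at rest, nor Esrrg (adjusted p 0.0534 to 0.0897), and after exercise only Esrrg was (0.0232). Without a filter on low values, Slc25a5 at rest had an adjusted p of 0.0519 and Tfam and Tmem70 after exercise 0.0557 and 0.0754, and with centred libraries Tmem70 had 0.0530.

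The log2 difference changed sign in some alternative for 20 of the 42 tested members at rest and 16 of 42 after exercise, none of them called. Leaving out each library in turn gave log2 differences at rest of Atp5d -0.20 to 0.29, Atp5g3 -0.013 to 0.17, Atp5h -0.083 to 0.087, Atp5j -0.15 to 0.080, Atp5l -0.10 to 0.046, Atp5sl -0.088 to 0.085, Cox4i1 -0.15 to 0.098, Cox4i2 -0.22 to 0.26, Cox5a -0.11 to 0.16, Cox5b -0.078 to 0.099, Cox6b1 -0.13 to 0.017, Cox6c -0.0015 to 0.086, Cox8b -0.22 to 0.26, Cyc1 -0.090 to 0.022, Uqcr10 -0.064 to 0.51, Uqcr11 -0.35 to 0.29, Uqcrb -0.20 to 0.089, Uqcrc2 -0.15 to 0.14, Uqcrh -0.21 to 0.056 and Uqcrq -0.22 to 0.63. After exercise it gave Atp5d -0.24 to 0.067, Atp5g3 -0.026 to 0.082, Atp5j -0.26 to 0.017, Atp5j2 -0.14 to 0.064, Atp5o -0.069 to 0.046, Atp5sl -0.14 to 0.045, Cox4i2 -0.31 to 0.32, Cox6a1 -0.16 to 0.14, Cox6a2 -0.10 to 0.31, Cox7a2 -0.11 to 0.084, Cox7a2l -0.087 to 0.006, Cox8a -0.086 to 0.26, Cyc1 -0.047 to 0.12, Cycs -0.072 to 0.049, Uqcrc1 -0.17 to 0.030 and Uqcrq -0.038 to 0.33. By the authors' group means Uqcrc2 differed by -0.0027 at rest. Leaving out libraries moved the share difference of Cox4i2 from -0.051 to 0.069 percentage points at rest and from -0.049 to 0.088 after exercise, that of Cox6a2 from -0.1 to 1.482 after exercise, and that of Cox8b from -0.636 to 1.778 at rest. As a log2 difference of the paralogs, Cox7b2 against Cox7b after exercise was 0.0014. The cause of these changes was not tested. With 3 libraries a group, most differences under 1.25-fold were not detectable.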
